A study of Mus musculus with 14 samples.

Results

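The genes described are the corticosteroid receptors Nr3c1 and Nr3c2 and 8 genes known to be induced by glucocorticoids, Fkbp5, Sgk1, Tsc22d3, Pdk4, Zbtb16, Cdkn1a, Plin4 and Errfi1. They were chosen by gene name, and all 10 were found in both deposited tables, among 26570 genes in the basal table and 25933 in the learning table. All 10 passed the filter on low counts in both experiments. Glucocorticoids such as corticosterone are released by the adrenal gland during stress, and swimming in a water maze is a known stressor in mice. They cross into the brain and bind the glucocorticoid receptor (Nr3c1) and the mineralocorticoid receptor (Nr3c2). In the absence of hormone, the glucocorticoid receptor is held in the cytoplasm by Hsp90 and its co-chaperones. The hormone-bound receptors move to the nucleus and bind glucocorticoid response elements in DNA. The hippocampus is known for its high level of both receptors, and the mineralocorticoid receptor, which has the higher affinity for corticosterone, is particularly abundant there.

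Dorsal hippocampal RNA of 14 male C57BL6 mice, aged 8 months, was sequenced with 1 library per mouse. The basal experiment compared untrained, resting THY-Tau22 mice (n = 2) with their WT controls (n = 3), and their labels mention no injection or vehicle, although a legend of the study uses vehicle names for them. THY-Tau22 mice are heterozygous for a mutated human Tau transgene driven by the Thy1.2 promoter, which is active in neurons. In the learning experiment, WT mice received saline and either stayed in the home cage (WT VEH_HC, n = 3) or were trained in the Morris water maze for 3 days (WT VEH, n = 2). Trained THY-Tau22 mice received carbon nanospheres alone (CSP; TAU VEH, n = 2) or nanospheres carrying TTK21, an activator of the CBP and p300 histone acetyltransferases (CSP-TTK21; TAU MOL, n = 2). Trained mice were killed 1 h after the last trial. Genotype and vehicle (saline or CSP) changed together in the learning experiment and cannot be told apart. No THY-Tau22 mouse of that experiment stayed in the home cage, and the authors left 3 libraries of it out of their analysis.

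Total counts per library were 24693713 to 52180305 for learning and 28639121 to 37681155 for basal libraries. Markers of CA1, CA3 and the dentate gyrus were detected in every library, and no marker of the 10 cell type and region lists was at 0 in any library. The summed level of 10 choroid plexus markers was 75.7 to 232 CPM (counts relative to the library total, scaled with TMM factors) in WT VEH_HC, 1565 to 2429 CPM in WT VEH, 232 to 277 CPM in TAU VEH and 704 to 768 CPM in TAU MOL. THY-Tau22 replicate 2 stood apart in the basal experiment, with a summed choroid plexus level of 1294 CPM against 265 to 431 CPM in WT and 391 CPM in the other THY-Tau22 library. The dependence of log2 CPM on GC content also followed the groups. The Spearman correlation over genes, between GC content and the deviation of a library from the mean log2 CPM of its experiment, was -0.62 to -0.40 in the TAU VEH and TAU MOL libraries, 0.085 to 0.28 in WT VEH and 0.41 to 0.45 in WT VEH_HC, and it was 0.48 and -0.60 in the THY-Tau22 libraries. Between TAU VEH and WT VEH, scaling by library size alone moved the median over all genes from 0.00 to 0.15 on the log2 scale, and the genes called from 608 higher and 1815 lower to 2576 higher and 1020 lower.

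**Figure D1:**
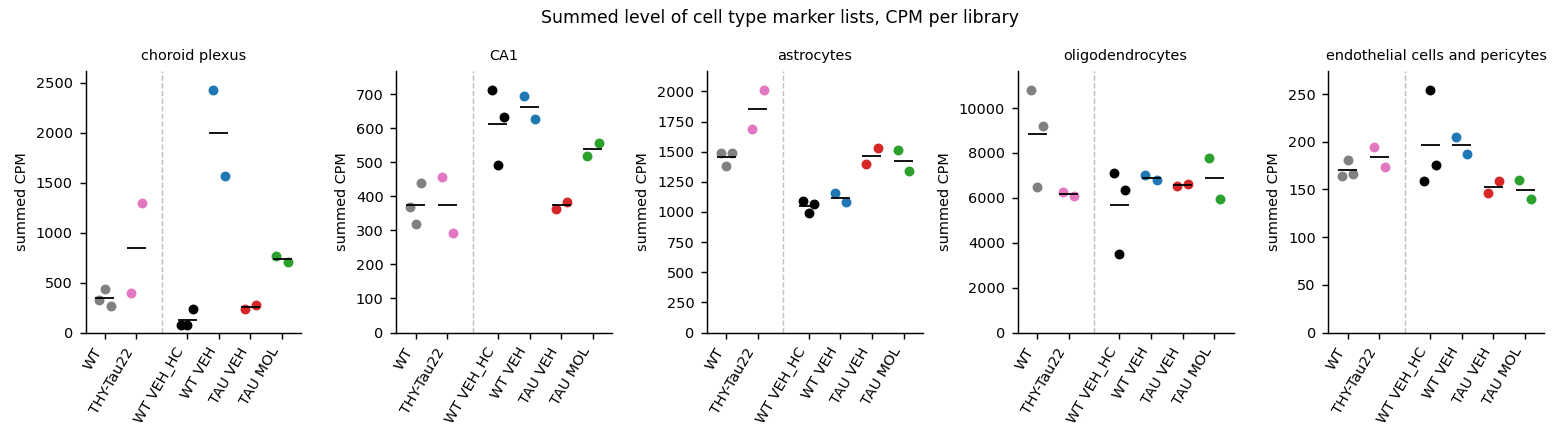
Summed CPM of 5 lists of cell type markers in each library (points), with group means (lines); the dashed line separates the basal from the learning experiment, which were scaled separately. Choroid plexus markers summed to 1565 to 2429 CPM in WT VEH and to 75.7 to 232 CPM in WT VEH_HC, and oligodendrocyte markers were lowest in 1 WT VEH_HC library, at 3512 CPM.

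A glucocorticoid response element is built from 2 copies of a 6-base site facing each other across 3 bases. The 2000 bases upstream of every annotated transcript start were searched on both strands for the core of that element, ACANNNTGT (N stands for any base), and for a longer form in which GN precedes the core and NC follows it. The longer form was found in 3.18% of 86987 upstream windows of all genes, and in 7 of 46 windows of the 10 genes, which belonged to Fkbp5 and Sgk1. The core was found in 45.38% of all windows and in 18 of the 46, which belonged to 6 of the 10 genes (Cdkn1a, Fkbp5, Nr3c1, Sgk1, Tsc22d3 and Zbtb16). Windows of neighbouring starts of a gene overlap and can hold the same match. The 4 matches to the longer form are shown because they are the closest to a full element among the 10 genes, with 14 flanking bases on each side, 5′ to 3′ on the strand of the gene, with the match in capitals. Sequences and positions are from the mouse genome NCBIM37 (mm9), and no data on receptor binding were analysed here.
Sgk1, chr10:21713494-21713534, plus strand, 176 bases upstream of a start: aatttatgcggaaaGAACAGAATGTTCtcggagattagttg
Fkbp5, chr17:28655111-28655151, minus strand, 656 bases upstream of a start: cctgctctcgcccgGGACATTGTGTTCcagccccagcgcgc
Fkbp5, chr17:28579351-28579391, minus strand, 698 bases upstream of an internal start: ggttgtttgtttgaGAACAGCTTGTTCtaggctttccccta
Fkbp5, chr17:28655963-28656003, minus strand, 1508 bases upstream of a start: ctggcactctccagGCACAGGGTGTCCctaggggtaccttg

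The mineralocorticoid receptor was the more abundant receptor message in every group. Per kilobase of exon, Nr3c2 had a mean level between 26.7 CPM in WT VEH and 36.3 CPM in THY-Tau22, and Nr3c1 had a mean level between 6.04 CPM in WT VEH_HC and 9.25 CPM in THY-Tau22. On the same per-kilobase scale, the most abundant induced genes in WT VEH_HC were Fkbp5 (11.1 CPM), Sgk1 (10.7 CPM) and Zbtb16 (9.98 CPM), and the least abundant was Plin4 (0.416 CPM). Sgk1 headed the induced genes in the trained mice, at a mean of 21.3 CPM per kilobase in WT VEH and 25.0 CPM per kilobase in both TAU VEH and TAU MOL. Plin4 rested on 63 to 99 counts per library in the basal experiment and on 73 to 388 in the learning experiment, and each of the other 9 genes on at least 237 counts in every library.

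**Figure D2:**
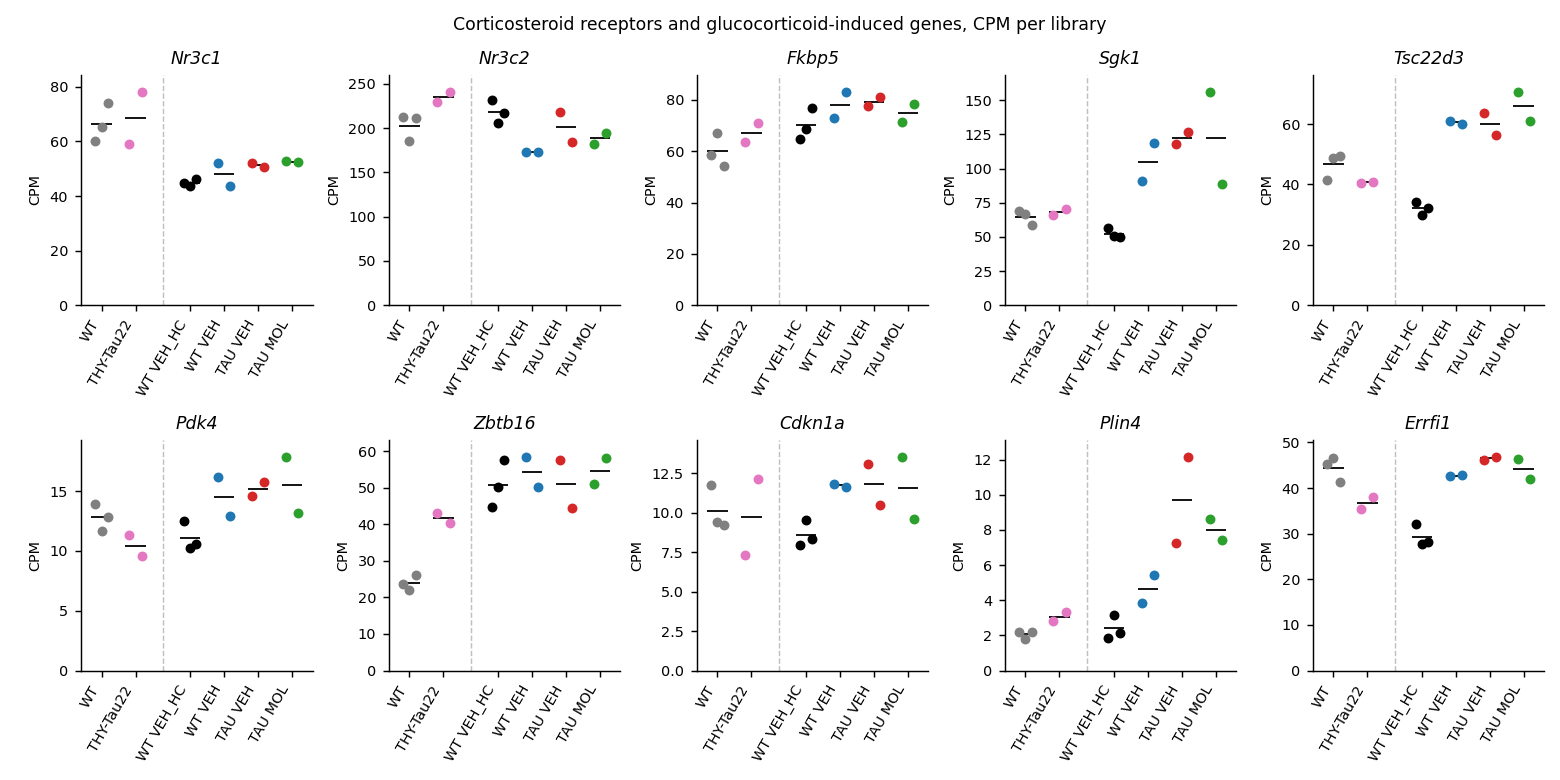
CPM of the 10 genes in each library (points) with group means (lines); the axes start at 0, and the dashed line separates the basal from the learning experiment, which were scaled separately. Sgk1, Tsc22d3, Errfi1, Plin4, Pdk4 and Cdkn1a are higher in each library of the 3 trained groups than in each WT VEH_HC library. Fkbp5 and Zbtb16 overlap between WT VEH_HC and WT VEH, and how many of all genes separate between these groups was not counted.

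Training in WT mice was examined by comparing WT VEH with WT VEH_HC. Of the 10 genes, 3 induced genes (Sgk1, Tsc22d3 and Errfi1) rose and 1 receptor (Nr3c2) fell, at an adjusted p under 0.05 with a log2 fold change beyond 0.2 in either direction. Over all 16820 genes tested, 8.4% were called in this comparison and 5.35% were called higher. These 1413 genes became 73 without WT VEH replicate 1, 282 without WT VEH replicate 2, 614 without WT VEH_HC replicate 1 and 2798 without WT VEH_HC replicate 3, and 767 after the GC and length correction. The median log2 fold change was 0.50 over the 8 induced genes and -0.0028 over all genes. In whole tissue, fewer cells of a type and less RNA per cell cannot be told apart, and this holds for each result that follows.

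Sgk1 (chr10:21601990-21719709, plus strand), a kinase acting on ion channels and transporters, was among the genes that rose. Its level was 56.7, 50.9 and 49.8 CPM in WT VEH_HC and 90.7 and 119 CPM in WT VEH. Both trained libraries lay above all 3 home-cage libraries, and they differed from each other more than the home-cage libraries did. The log2 fold change was 0.996 ± 0.18 (SE; edgeR quasi-likelihood test, adjusted p = 0.0127). Leaving out WT VEH replicate 1 or WT VEH replicate 2 raised the adjusted p to 0.0728 or 0.0971.

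Tsc22d3 (chrX:137074067-137135198, minus strand), which encodes the glucocorticoid-induced leucine zipper GILZ, a mediator of anti-inflammatory actions of the hormone, was measured at 34.1, 30.0 and 32.2 CPM in WT VEH_HC. It reached 61.1 and 59.9 CPM in WT VEH. The groups did not overlap and the trained libraries lay close together. Its log2 fold change was 0.91 ± 0.08 (SE; edgeR, adjusted p = 0.000164), and it stayed called without any single library.

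Errfi1 (chr4:150228028-150243001, plus strand), a feedback inhibitor of the epidermal growth factor receptor, was measured at 32.0, 27.8 and 28.1 CPM in WT VEH_HC and at 42.6 and 42.8 CPM in WT VEH. Again each trained library was higher than each home-cage library. The log2 fold change was 0.54 ± 0.08 (SE; edgeR, adjusted p = 0.00345), and the adjusted p was 0.0694 without WT VEH replicate 1.

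Nr3c2 (chr8:79423341-79768911, plus strand) went the other way, from 231, 205 and 217 CPM in WT VEH_HC to 173 CPM in both WT VEH libraries. The log2 fold change was -0.34 ± 0.08 (SE; edgeR, adjusted p = 0.0308). It lost its call under 6 of 14 alternative settings, against 3 for Sgk1, 2 for Errfi1 and 1 for Tsc22d3. Its adjusted p was 0.237 without WT VEH replicate 1, 0.126 without WT VEH replicate 2, 0.0739 without WT VEH_HC replicate 1, 0.0559 in a fit of these groups alone and 0.0601 once GC content and gene length were corrected for. Nr3c1 was measured at 44.6, 43.7 and 46.2 CPM in WT VEH_HC and 52.0 and 43.8 CPM in WT VEH, with overlapping groups and a log2 fold change of 0.10 ± 0.08 (SE; edgeR, adjusted p = 0.439).

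The other induced genes did not pass the edgeR test in WT mice. Plin4 (chr17:56240014-56249225, minus strand), a coat protein of lipid droplets, stood at 1.86, 3.18 and 2.15 CPM in WT VEH_HC and 3.82 and 5.45 CPM in WT VEH, without overlap (log2 fold change 0.94 ± 0.26 SE, edgeR adjusted p = 0.0504). DESeq2 called it (adjusted p = 0.00408). Cdkn1a (chr17:29227924-29237667, plus strand), the cell cycle inhibitor p21, stood at 7.93, 9.56 and 8.32 CPM against 11.9 and 11.7 CPM (log2 fold change 0.45, edgeR adjusted p = 0.0777) and was called by DESeq2 as well (adjusted p = 0.0424). Pdk4 (chr6:5433351-5446309, minus strand), a kinase that inhibits pyruvate dehydrogenase, stood at 12.5, 10.2 and 10.6 CPM against 16.2 and 12.9 CPM (log2 fold change 0.40, edgeR adjusted p = 0.10). Without WT VEH_HC replicate 2, the library with the lowest oligodendrocyte marker level, edgeR called Plin4 (log2 fold change 1.20, adjusted p = 0.0155) and Cdkn1a (0.53, 0.0494). For these 3 genes both trained libraries were above the home-cage libraries, and how many of all genes separate in this way was not counted.

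Fkbp5 (chr17:28536040-28654469, minus strand), the co-chaperone that lowers the hormone affinity of the glucocorticoid receptor, did not pass the edgeR test either. It was measured at 64.9, 68.6 and 77.0 CPM in WT VEH_HC and at 73.0 and 83.2 CPM in WT VEH. The groups overlapped, and the log2 fold change was 0.15 with a 95% interval of -0.03 to 0.34 (edgeR, adjusted p = 0.267). Zbtb16 (chr9:48462416-48644050, minus strand), a zinc finger transcription factor, overlapped as well, at 44.8, 50.2 and 57.7 CPM against 58.5 and 50.3 CPM (log2 fold change 0.10, 95% interval -0.18 to 0.37).

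All 10 choroid plexus markers were called higher in WT VEH than in WT VEH_HC, as given by their summed levels above. With a choroid plexus score as a covariate, 0 of the 10 genes and 0 of all 16820 genes were called in this comparison (adjusted p from 0.921 to 0.935 for those called without it, and log2 fold changes of 1.27 for Sgk1, 0.84 for Tsc22d3, 0.62 for Errfi1 and -0.28 for Nr3c2). The score ran from 0.84 to 2.38 in WT VEH_HC and from 4.65 to 5.32 in WT VEH, so that it nearly coincided with the groups. Of the other lists, 1 of 5 astrocyte, 1 of 5 endothelial cell and pericyte, 1 of 4 microglia and 1 of 4 blood markers were called higher. In the direction of Nr3c2, 1 of 3 CA3 and 1 of 3 dentate gyrus markers were called lower. None of the 3 CA1, 3 thalamus and 5 oligodendrocyte markers was called. The part of these cells in the result was not tested.

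Trained THY-Tau22 mice were set against the same 3 home-cage WT libraries. Training, genotype and vehicle all differ in these comparisons and cannot be told apart, and the comparisons share their controls with the one above. In TAU VEH, 6 of the 10 genes were higher than in WT VEH_HC and 0 were lower, where 34.4% of all genes were called and 16.2% were called higher. In TAU MOL, 7 were higher and 0 lower, where 28.9% of all genes were called and 14% were called higher. After the GC and length correction, the genes called fell from 5782 to 1417 (751 higher) in TAU VEH and from 4865 to 1468 (760 higher) in TAU MOL, and 5 of the 10 genes were called in each. With library size alone, 4988 were higher and 1531 lower in TAU VEH, against 2724 and 3058 with TMM, and 4430 and 1146 in TAU MOL, against 2353 and 2512. Leaving out 1 TAU VEH library left 3273 or 3766 genes called, and leaving out 1 TAU MOL library left 2319 or 2405. The median log2 fold change of the 8 induced genes was 0.57 in TAU VEH and 0.54 in TAU MOL, beside medians of -0.01 over all genes in both comparisons.

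**Figure D3:**
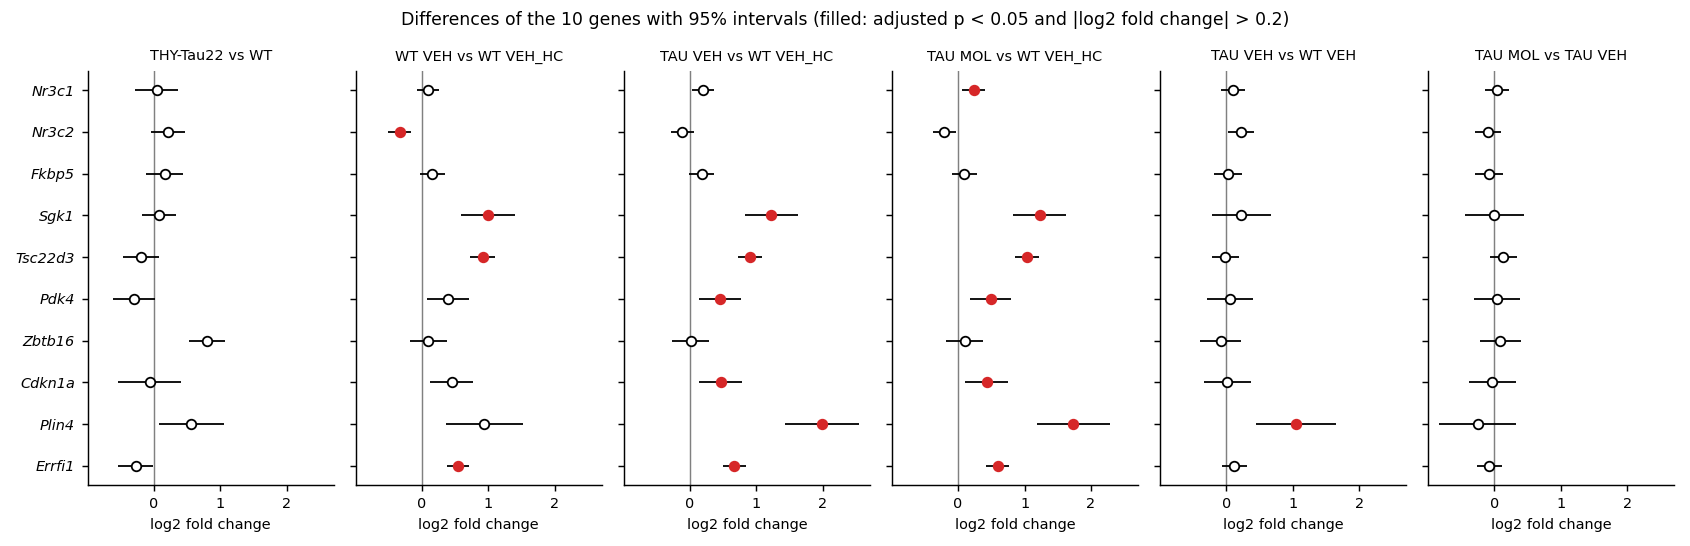
Log2 fold changes of the 10 genes (points) with 95% intervals (lines) in 6 comparisons from the edgeR fits; filled points passed an adjusted p under 0.05 and a log2 fold change beyond 0.2. Sgk1, Tsc22d3 and Errfi1 are filled in the 3 comparisons with WT VEH_HC, Plin4 is filled at 1.05 between TAU VEH and WT VEH, and no point is filled between TAU MOL and TAU VEH or in the basal comparison.

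Plin4 had the largest difference. It was measured at 7.26 and 12.1 CPM in TAU VEH and at 8.63 and 7.40 CPM in TAU MOL, above the 1.86 to 3.18 CPM of the home-cage libraries. Its log2 fold change was 1.98 ± 0.25 (SE; edgeR, adjusted p = 0.000285) in TAU VEH and 1.73 ± 0.25 (SE; adjusted p = 0.00104) in TAU MOL. Plin4 is overlapped on the opposite strand by Hdgfrp2, Errfi1 by 1700045H11Rik, Nr3c2 by Gm10649 and Fkbp5 by a 7SK copy. With an unstranded kit, reads of such pairs cannot be told apart by strand.

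Sgk1 reached 118 and 127 CPM in TAU VEH and 156 and 88.6 CPM in TAU MOL. The TAU MOL libraries were further apart than those of any other group, and both stayed above the home-cage libraries. The log2 fold change was 1.22 ± 0.18 (SE) in both comparisons (edgeR, adjusted p = 0.000564 in TAU VEH and 0.00115 in TAU MOL). Tsc22d3 reached 63.5 and 56.3 CPM in TAU VEH (log2 fold change 0.90 ± 0.09 SE, adjusted p = 0.000218). In TAU MOL it reached 70.7 and 61.1 CPM (log2 fold change 1.04 ± 0.08 SE, adjusted p = 0.000103). Errfi1 was measured at 46.1 and 46.8 CPM in TAU VEH and 46.3 and 42.0 CPM in TAU MOL (log2 fold changes 0.67 and 0.59, each ± 0.08 SE, adjusted p = 0.000225 and 0.000824). Sgk1, Tsc22d3, Errfi1 and Plin4 remained called in both comparisons without any single library.

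Pdk4 and Cdkn1a were called with smaller differences that rested on single libraries. Pdk4 was measured at 14.6 and 15.7 CPM in TAU VEH (log2 fold change 0.45 ± 0.14 SE, edgeR adjusted p = 0.0304). It was measured at 17.9 and 13.2 CPM in TAU MOL (0.49 ± 0.14 SE, adjusted p = 0.0227). Cdkn1a was measured at 13.1 and 10.5 CPM in TAU VEH (0.46 ± 0.15 SE, adjusted p = 0.0306). In TAU MOL its level was 13.6 and 9.62 CPM (0.43 ± 0.15 SE, adjusted p = 0.0471), and the lower of these was just above the highest home-cage library at 9.56 CPM. In TAU VEH, Pdk4 lost the call without WT VEH_HC replicate 2 (adjusted p = 0.0524), WT VEH_HC replicate 3 (0.0708), TAU VEH replicate 1 (0.093) or TAU VEH replicate 2 (0.156), and after the GC and length correction (log2 fold change 0.24, adjusted p = 0.308). Cdkn1a lost it there without WT VEH_HC replicate 1 (0.0758), WT VEH_HC replicate 3 (0.0664) or TAU VEH replicate 1 (log2 fold change 0.29, adjusted p = 0.322). In TAU MOL, both lost it without WT VEH_HC replicate 3 (adjusted p = 0.0532 for Pdk4 and 0.0933 for Cdkn1a) and without TAU MOL replicate 1 (log2 fold changes 0.25 and 0.16, adjusted p = 0.305 and 0.535), and Cdkn1a also without WT VEH_HC replicate 1 (0.11).

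Among the receptors, Nr3c1 was called higher in TAU MOL, at 53.0 and 52.3 CPM against 43.7 to 46.2 CPM in WT VEH_HC, with a log2 fold change of 0.23 ± 0.08 (SE; edgeR, adjusted p = 0.0388). This small difference lost its call without WT VEH_HC replicate 1 (adjusted p = 0.0764), WT VEH_HC replicate 2 (0.0754), TAU MOL replicate 1 (0.173) or TAU MOL replicate 2 (0.14), and its log2 fold change was 0.11 after the GC and length correction (adjusted p = 0.366). In TAU VEH, Nr3c1 was measured at 52.1 and 50.5 CPM (log2 fold change 0.19, adjusted p = 0.0695). Nr3c2 was measured at 218 and 184 CPM in TAU VEH and 182 and 195 CPM in TAU MOL, and neither difference from WT VEH_HC was called (adjusted p = 0.288 and 0.0648). Fkbp5 was measured at 77.5 and 81.1 CPM in TAU VEH and 71.4 and 78.4 CPM in TAU MOL (log2 fold changes 0.18 and 0.09, adjusted p = 0.139 and 0.446).

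Choroid plexus markers were called higher in 3 of 10 cases in TAU VEH and 10 of 10 in TAU MOL. With the choroid plexus score as a covariate, Sgk1, Tsc22d3, Errfi1 and Plin4 kept their calls in TAU VEH, where the score ran from 2.41 to 2.77, and 0 of the 10 genes were called in TAU MOL, where it ran from 3.73 to 3.89. Over all genes the calls went from 5782 to 2913 in TAU VEH and from 4865 to 89 in TAU MOL. With the covariate the log2 fold changes in TAU MOL were 1.41 for Sgk1, 0.99 for Tsc22d3, 0.64 for Errfi1, 2.21 for Plin4 and 0.03 for Nr3c1. Astrocyte markers were called higher in 4 of 5 cases in TAU VEH and 3 of 5 in TAU MOL, and CA1 markers were called lower in 2 of 3 and 1 of 3. Of the 5 endothelial cell and pericyte markers, 1 was higher and 2 were lower in both comparisons. Of 3 CA3 markers 1 was higher in TAU VEH and 1 lower in TAU MOL, and 1 of 3 dentate gyrus markers was lower and 1 of 3 thalamus markers higher in both. In TAU VEH 1 of 4 microglia and 1 of 4 blood markers were higher. Oligodendrocyte markers were called in 0 of 5 cases in either comparison. The part of these cells in the results was not tested.

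The effect of genotype and vehicle in trained mice was examined by comparing TAU VEH with WT VEH. Plin4 was the only one of the 10 genes called, while 14.4% of all genes were. Those 2423 genes became 444 after the GC and length correction, 1223 or 1276 without 1 WT VEH library and 915 or 1232 without 1 TAU VEH library. It stood at 7.26 and 12.1 CPM in TAU VEH against 3.82 and 5.45 CPM in WT VEH, without overlap, with a log2 fold change of 1.05 ± 0.27 (SE; edgeR, adjusted p = 0.0245). The call was lost without WT VEH replicate 1 (log2 fold change 0.82, adjusted p = 0.188), WT VEH replicate 2 (1.32, 0.0501) or TAU VEH replicate 2 (0.65, 0.20), and with the choroid plexus score as a covariate (0.58, 0.67), under which 0 of all genes were called. In this comparison all 10 choroid plexus markers were called lower in TAU VEH. In the direction of Plin4, 2 of 5 astrocyte, 1 of 3 CA3 and 1 of 3 thalamus markers were called higher, while 2 of 3 CA1, 1 of 4 microglia and 1 of 5 endothelial cell and pericyte markers were called lower. The part of these cells in the result was not tested. The median log2 fold change of the 8 induced genes was 0.04, beside 0.00 over all genes. Sgk1 had a log2 fold change of 0.23 with a 95% interval of -0.22 to 0.67, and Tsc22d3 one of -0.01 with an interval of -0.22 to 0.19. Besides Plin4, Nr3c2 and Errfi1 were higher in both TAU VEH libraries than in both WT VEH libraries. Neither passed the edgeR test (log2 fold change 0.22 ± 0.09 SE, adjusted p = 0.123 for Nr3c2, and 0.12 ± 0.08 SE, adjusted p = 0.402 for Errfi1). How many of all genes separate in this way was not counted. TAU MOL was also compared with WT VEH, where 0 of the 10 genes and 5.63% of all genes were called by edgeR. Those 947 genes became 31 after the GC and length correction and from 2 to 4 without single libraries. Plin4 was the 1 gene of the 10 with an unadjusted p under 0.05 (log2 fold change 0.79 ± 0.27 SE, edgeR adjusted p = 0.122). DESeq2 gave no adjusted p for Plin4 and called 0 of the other 9.

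The effect of TTK21 itself was examined by comparing TAU MOL with TAU VEH, which differ only in the molecule on the nanospheres. None of the 10 genes was called by edgeR or DESeq2, and 0 of them had an unadjusted p under 0.05. Among all genes, edgeR called 0%, although 1064 genes had an unadjusted p under 0.05, and DESeq2 called 54 genes. Without TAU VEH replicate 1 edgeR called 11 genes, without TAU VEH replicate 2 it called 1, in a fit of these groups alone 60, and without the low-count filter 233. The log2 fold changes of the 10 genes ran from -0.25 (Plin4) to 0.14 (Tsc22d3), and each 95% interval included 0. The intervals were narrowest for the receptor Nr3c1 (-0.15 to 0.22) and for Errfi1 (-0.26 to 0.11). They were wide for Sgk1 (-0.44 to 0.44) and Plin4 (-0.83 to 0.32). No cell type marker was called by edgeR in this comparison, but 9 of 10 choroid plexus markers (median log2 fold change 1.31), 3 of 3 CA3 markers (-0.40) and 2 of 3 CA1 markers (0.33) had an unadjusted p under 0.05, and DESeq2 called 1 of the choroid plexus markers. Their part in these values was not tested.

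In untrained mice, the basal comparison of THY-Tau22 with WT called 0 of the 10 genes with edgeR and 0.0245% of all genes. These 4 genes became 15 without THY-Tau22 replicate 1, 7 without THY-Tau22 replicate 2, 2 without WT replicate 2 and 1 without WT replicate 3. Unadjusted p was under 0.05 for 3 of the 10 genes (Zbtb16, Plin4 and Errfi1), and DESeq2 called 1, Zbtb16, among 41 of the 24594 genes it tested. Zbtb16 was measured at 23.8, 21.9 and 26.2 CPM in WT and at 43.1 and 40.3 CPM in THY-Tau22. The gap between the groups was larger than the spread within either of them. The log2 fold change was 0.80 with a 95% interval of 0.53 to 1.07 (edgeR, unadjusted p = 5.91e-05, adjusted p = 0.107; DESeq2, adjusted p = 7.85e-05). Over the 13 alternative settings the adjusted p ran from 7.85e-05 to 0.212, and it was 0.184 without THY-Tau22 replicate 2 (log2 fold change 0.85). In the learning experiment, which was scaled separately, each library of WT and THY-Tau22 mice had a Zbtb16 level from 44.5 to 58.5 CPM. Plin4 was measured at 2.19, 1.81 and 2.20 CPM in WT and 2.79 and 3.33 CPM in THY-Tau22, and Errfi1 at 45.3, 46.6 and 41.3 CPM against 35.4 and 38.1 CPM. Their log2 fold changes were 0.57 and -0.27, and neither passed adjustment (adjusted p = 0.901 for both). No cell type marker was called by edgeR in this comparison, but 6 of 10 choroid plexus markers (median log2 fold change 0.89), 4 of 5 oligodendrocyte markers (-0.55), 2 of 4 blood markers (-0.53) and 1 of 3 thalamus markers (-0.53) had an unadjusted p under 0.05. So did 1 of 5 astrocyte markers (median 0.07) and 1 of 4 microglia markers (0.10), and DESeq2 called 1 of the astrocyte markers. Astrocyte markers summed to 1691 to 2011 CPM in THY-Tau22 and 1384 to 1490 CPM in WT, and oligodendrocyte markers to 6085 to 6278 CPM and 6505 to 10803 CPM. With the choroid plexus score as a covariate edgeR again called 0 of the 10 genes, and the part of these cells was not tested.

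Sgk1 had a basal level of 68.9, 66.8 and 58.8 CPM in WT and 66.3 and 70.5 CPM in THY-Tau22 (log2 fold change 0.08, 95% interval -0.18 to 0.34). Tsc22d3 was measured at 41.6, 48.8 and 49.6 CPM in WT and 40.4 and 41.0 CPM in THY-Tau22 (log2 fold change -0.20, 95% interval -0.47 to 0.08). Fkbp5 was measured at 58.6, 67.3 and 54.2 CPM against 63.6 and 70.9 CPM. The receptor Nr3c1 was at 60.3, 65.2 and 74.1 CPM against 59.1 and 78.3 CPM, and Nr3c2 at 212, 185 and 211 CPM against 229 and 241 CPM (log2 fold change 0.21, adjusted p = 0.901).

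Whether the difference between genotypes itself differed between trained and untrained mice was tested on all 14 libraries. Training and experiment differ between the mice compared and cannot be told apart, and the injections may differ as well. None of the 10 genes passed with edgeR, and 0.129% of all genes did. Zbtb16 had the largest value, a log2 difference of -0.85 ± 0.20 (SE; edgeR, adjusted p = 0.141; DESeq2, adjusted p = 0.00871). It is made of a log2 fold change of 0.80 in untrained mice and of -0.08 in trained mice, and edgeR called it without THY-Tau22 replicate 2 (log2 difference -0.92, adjusted p = 0.032). Leaving out that library raised the genes called over all from 22 to 767, leaving out THY-Tau22 replicate 1 gave 41, WT replicate 1 14, WT VEH replicate 1 7, TAU VEH replicate 1 13 and TAU VEH replicate 2 10, and DESeq2 called 118. Errfi1 was the other gene with an unadjusted p under 0.05 (log2 difference 0.43 ± 0.13 SE, edgeR adjusted p = 0.391). Of 10 choroid plexus markers edgeR called 4, all lower, and DESeq2 called 6. All 10 (median log2 difference -3.46), 2 of 3 CA1 markers (-0.84) and 2 of 5 endothelial cell and pericyte markers (-0.48) had an unadjusted edgeR p under 0.05. The part of these cells was not tested.

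The wider pathway was followed with 20 further genes known to be induced by glucocorticoids. In WT VEH against WT VEH_HC, where 8.4% of all genes were called and 5.35% called higher, 7 of the 20 rose and 0 fell, with a median log2 fold change of 0.31 beside -0.0028 over all genes. Per1, a component of the circadian clock with a glucocorticoid response element, rose from 87.4 to 106 CPM in the home cage to 149 to 181 CPM (log2 fold change 0.81 ± 0.10 SE, edgeR adjusted p = 0.00103). Klf15, a Krüppel-like transcription factor, rose from 16.4 to 19.6 CPM to 23.5 to 27.5 CPM (0.51 ± 0.09 SE, adjusted p = 0.0117). Hif3a, a hypoxia-inducible factor subunit, rose from 2.44 to 3.27 CPM to 4.64 to 5.85 CPM (0.92 ± 0.18 SE, adjusted p = 0.0153). In TAU VEH against WT VEH_HC, 7 of 20 were higher and 0 lower (median 0.27), where 16.2% of all genes were called higher. In TAU MOL 10 of 20 were higher and 0 lower (median 0.38), where 14% of all genes were called higher. Among the genes called, Hif3a had the largest log2 fold change in both, at 1.24 ± 0.18 and 1.49 ± 0.17 (SE). Fam107a, an actin-associated protein, was higher by 0.54 ± 0.08 and 0.62 ± 0.08 on the log2 scale.

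Per1 was the gene of this list called between TAU VEH and WT VEH. It stood at 101 to 103 CPM in TAU VEH against 149 to 181 CPM in WT VEH (log2 fold change -0.69 ± 0.11 SE, edgeR adjusted p = 0.00179). It was the 1 of 20 genes called, where 14.4% of all genes were. With the choroid plexus score as a covariate 0 of all genes were called in this comparison, and after the GC and length correction 444 were. All 10 choroid plexus markers were called lower in it, and markers of other cell types were called in both directions. The part of these cells was not tested. In TAU MOL Per1 stood at 115 to 123 CPM (log2 fold change from WT VEH -0.47 ± 0.11 SE, edgeR adjusted p = 0.0269). Klf9, another Krüppel-like factor, was higher in TAU MOL than in WT VEH, at 144 to 149 CPM against 121 to 123 CPM (0.27 ± 0.07 SE, adjusted p = 0.0375). Between TAU MOL and WT VEH, from 2 to 4 genes in all were called without 1 library of either group, and 5 of 10 choroid plexus, 1 of 3 CA1 and 1 of 4 microglia markers were called lower and 1 of 5 astrocyte markers higher. Their part in these results was not tested. Neither edgeR nor DESeq2 called any of the 20 genes between TAU MOL and TAU VEH, where 2 had an unadjusted p under 0.05. In the basal comparison edgeR called 0 of the 19 genes tested (3 with an unadjusted p under 0.05) and DESeq2 called 1.

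**Figure D4:**
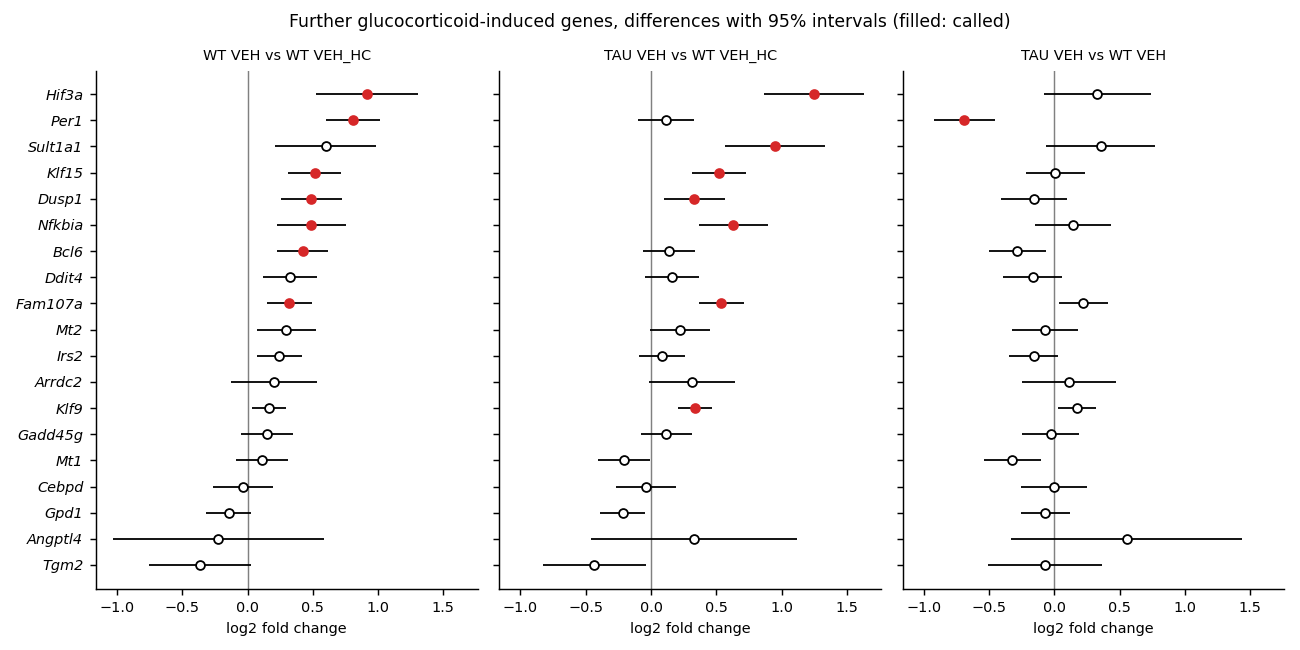
Log2 fold changes (points) with 95% intervals (lines) of 19 further glucocorticoid-induced genes in 3 comparisons, ordered by the first; filled points were called by edgeR, and Lcn2, which has few counts, is not drawn. Per1 is filled at 0.81 in WT VEH against WT VEH_HC and at -0.69 in TAU VEH against WT VEH.

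Genes that regulate the receptors or the supply of hormone were called in both directions. Of 18 such genes, which include Hsp90 chaperones, coregulators, steroid-converting enzymes and the corticotropin-releasing hormone system, 17 were tested, and Hsd11b2 had too few counts. In WT VEH against WT VEH_HC 1 was higher and 0 lower, with a median log2 fold change of 0.04, where 5.35% of all genes were called higher. That gene was the chaperone Hsp90aa1, at 310 to 311 CPM against 218 to 273 CPM (log2 fold change 0.36 ± 0.08 SE, edgeR adjusted p = 0.0284). In TAU VEH against WT VEH_HC 3 were higher and 3 lower, a share near the 34.4% called among all genes. In TAU MOL 4 were higher and 4 lower, where 28.9% of all genes were called. Hsp90aa1 was higher in both (0.59 and 0.50 on the log2 scale, each ± 0.08 SE). Crhr1, the receptor of corticotropin-releasing hormone, was lower in both (-0.56 ± 0.09 and -0.36 ± 0.09 SE). Between TAU VEH and WT VEH, where 14.4% of all genes were called, 2 of 17 were lower and 0 higher. Crhr1 was among them, at 10.1 to 10.6 CPM against 14.5 to 15.6 CPM (log2 fold change -0.55 ± 0.10 SE, edgeR adjusted p = 0.00395). As given above, 0 of all genes were called in this comparison with the choroid plexus score as a covariate. Between TAU MOL and TAU VEH edgeR and DESeq2 called 0 of 17, with 1 at an unadjusted p under 0.05, and in the basal comparison both called 0, again with 1.

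The genes whose profiles over the 9 learning libraries were most like those of Tsc22d3, Sgk1, Fkbp5 and Nr3c1 were found by the root mean square difference of centred log2 CPM. For Tsc22d3, which varied by 0.46 about its mean on this scale, they were Tiparp (0.093), Stk17b (0.11) and Mitf (0.13). For Sgk1, which varied by 0.58, they were Gm15066, Ipo11 and Gm3086 (0.18 to 0.20), all at mean levels from 0.352 to 0.487 CPM. For Fkbp5, which varied by only 0.11, they were Ciao1, Mrpl48 and Leprot (0.036 to 0.040). For Nr3c1, which also varied by 0.11, they were Zfp91, Ptpn2 and Ptp4a2 (0.038 to 0.042).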

How the data were processed

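Dorsal hippocampal poly-A RNA of 14 mice was sequenced by the authors as single-end reads, aligned to mm9 with TopHat2 2.0.10 and Bowtie2 2.1.0 and counted per Ensembl gene with HTSeq 0.5.4p3, using uniquely aligned reads only. The authors deposited these raw counts, which were used for all tests, beside a normalized signal (counts over 1 size factor per library), which served only to check the columns. The learning table held 138 lines without values, which were left out.

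Counts were compared with edgeR 4.0.16 in R 4.3.3 (quasi-likelihood F test, TMM, filterByExpr, Benjamini-Hochberg adjustment over all genes tested), with the 5 basal libraries in one fit, the 9 learning libraries in another, and all 14 in a fit for the difference between genotype effects. Calls needed an adjusted p below 0.05 with a log2 fold change beyond 0.2 in either direction. CPM carry TMM factors and log2 CPM a prior count of 1. Tests were first tested on simulated data. Alternatives were DESeq2 1.42.0, its size factors in edgeR, no filter, library size alone, a mean of at least 10 counts, a fit of the compared groups alone, the replicate number as a block, a GC and length correction (loess, span 0.3), a choroid plexus score as a covariate, no fold limit, and leaving out each library. In the latter, a group left with 1 library was assumed to vary like the others.

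Transcript starts, exon lengths and sequences were from GENCODE vM1 on NCBIM37 (mm9), and Python 3.11.15, pandas 2.3.3, numpy 2.4.6 and matplotlib 3.10.9 served for tables and plots. All 10 genes are named, and from each list the 2 called genes with the smallest adjusted p and the 2 with the largest change, except for 1 gene that is not reported here. The genes and lists were chosen with earlier results of these data known. Samples were grouped by their labels. The labels name separate samples, and p-values measure the spread between them. The common coefficient of variation was 0.084 for learning and 0.129 for basal libraries. For the 10 genes except Plin4, precision was limited more by the number of mice than by depth. Plin4, with as few as 63 counts in a basal library and 73 in a learning library, was limited by depth as well. ChIP-seq data were not analysed here.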

Additional observations from a re-analysis of the deposited data

How the results depend on the processing

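Of 305 recomputed log2 fold changes for the 22 differences called by edgeR or DESeq2, 242 kept their side of the threshold, 47 lost the call, 16 gained it and 0 changed direction. For THY-Tau22 against WT, 1 gene (Zbtb16) in place of 0 was called by DESeq2, without the low-count filter, and after the GC and length correction. For WT VEH against WT VEH_HC, 7 in place of 4 were called without the filter (2686 of 25933 genes in all), 0 with the choroid plexus covariate (0 of 16820), and from 1 to 6 without single libraries (73 to 2798 in all). For TAU VEH against WT VEH, 2 in place of 1 were called with library size alone and in a fit of these groups alone (Nr3c2 and Plin4), 0 with the choroid plexus score, and from 0 to 1 without single libraries. For TAU MOL against WT VEH, 1 in place of 0 (Plin4) was called without the filter and in a fit of these groups alone. For TAU MOL against WT VEH_HC, 0 in place of 7 were called with the choroid plexus score and from 4 to 7 without single libraries. For the difference between genotype effects, 1 in place of 0 (Zbtb16) was called by DESeq2 and without the filter, and from 0 to 1 without single libraries. For TAU VEH against WT VEH_HC the alternatives kept the count of 6 within 1.5 times, and for TAU MOL against TAU VEH each gave 0. The cause was not tested.

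With the replicate block, 1 gene (Zbtb16, adjusted p = 0.0122) was called between THY-Tau22 and WT, 6 in place of 4 between WT VEH and WT VEH_HC (Plin4 at 0.0371 and Fkbp5 at 0.0333 gained), 7 in place of 6 in TAU VEH and 6 in place of 7 in TAU MOL against WT VEH_HC. Cdkn1a lost its call in both of these (0.0701 and 0.0968), and Fkbp5 and Nr3c1 gained one in TAU VEH. Over all genes, the calls between WT VEH and WT VEH_HC went from 1413 to 3000. Deviations of libraries with the same number correlated from -0.16 to 0.24, so the numbers were not taken to pair the mice.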
